A study of Mus musculus with 12 samples.

Results

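The genes of cholesterol and fatty acid synthesis were followed in B16F10 cells, a mouse melanoma line from the C57BL/6 strain, by RNA sequencing. The 31 genes were taken from the count table by their Ensembl identifiers, out of 54232 genes in the table. They comprise 17 enzymes of cholesterol synthesis, 6 genes of sterol sensing and transport, 6 enzymes of fatty acid synthesis and 2 transporters that carry cholesterol out of the cell. The 12 libraries fall into 4 groups of 3. WT cells were untreated B16F10 in culture. Relapsed lines (ITF1, Rel and ITM, each a line of its own) were sorted from tumors that had come back after immunotherapy and were grown to confluency. Tumor cells (Tumor 1, 3 and 4) were sorted from such tumors, and their RNA was extracted at once. For both, B16F10 cells had been injected under the skin of mice, which the labels give as 6 weeks old. The study's methods give older mice. Its results text has the Tumor cells sorted days after immunotherapy, while its methods name relapsed tumors. The labels do not say which immunotherapy a library had received. Lyso cells were B16F10 incubated with granules, called lysosomes in the labels, that T cells had secreted. The labels give 48 hours for this incubation, while the study's methods give a shorter one. The methods also have these cells plated on a low-adherence dish coated with poly-lysine, and whether WT cells were plated in that way is not given in the sources used here. For WT, Lyso and Tumor, none of the sources says that the 3 libraries of a group came from separate cultures or mice, so the p-values below measure only the spread between these libraries.

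Counts on genes ranged from 1667398 to 16402629 per library. The shallow libraries were those of Tumor and WT 1 and WT 2, with at most 5049496 counts, and WT 3, the relapsed lines and the Lyso libraries were deep. Levels are given as CPM, counts relative to the size of a library, scaled by edgeR's TMM factors. Differences are log2 fold changes from edgeR's quasi-likelihood test, fitted to all 12 libraries, and genes count as risen or fallen below when the p, adjusted by Benjamini-Hochberg over the 14924 genes tested, was under 0.05. All but 1 of the 31 genes (Abcg1, which had too few counts) were tested. The melanocyte markers, 9 genes such as Dct and Pmel, were detected in every library, with a summed level of 19744 to 37247 CPM. In these bulk samples, a lower share of cells of one type cannot be told apart from less RNA per cell.

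Cholesterol is built from acetyl-CoA through mevalonate, isoprenoids, squalene and lanosterol. The transcription factors SREBP1 and SREBP2, encoded by Srebf1 and Srebf2, are held in the endoplasmic reticulum with the escort protein SCAP. When sterols are plentiful, the INSIG proteins retain SCAP there. When sterols are scarce, SCAP carries the factors to the Golgi, where they are cut and released to the nucleus. SREBP2 acts mainly on the cholesterol enzymes, and SREBP1 on the fatty acid enzymes as well. The receptor LXR, which senses oxidized sterols, raises the transporters Abca1 and Abcg1. SREBP factors bind sterol regulatory elements (SRE) and E-boxes, often beside a CCAAT box bound by NF-Y and a GC box bound by Sp1.

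Because most cholesterol enzymes lay higher in the same groups, the sequence upstream of their start sites was read from RefSeq (build GRCm38.p6). Promoter windows of 250 bases before to 50 bases after a start site were found for 24 of the 31 genes and for 14 of the 17 cholesterol enzymes. Fdps, Fdft1, Sqle, Stard4, Scd1, Scd2 and Abcg1 had no entry. Shown here, picked by hand, are some of the enzymes with large or stable differences in Lyso and some genes that hold an SRE or E-box. Tm7sf2, which also had such a difference, has an entry but is not shown. Each window runs from 160 bases before the RefSeq start site to the last base before the first exon annotated by RefSeq or GENCODE. The windows lie at chr13:119690191-119690350 (plus strand) for Hmgcs1, chr8:122443423-122443582 (minus strand) for Mvd, chr10:76531445-76531587 (plus strand) for Lss, chrX:72918361-72918520 (plus strand) for Nsdhl, chr1:169969242-169969365 (minus strand) for Hsd17b7, chrX:8193513-8193672 (minus strand) for Ebp, chr9:42264301-42264460 (minus strand) for Sc5d and chr5:28071252-28071362 (plus strand) for Insig1. They are written 5′ to 3′ on the strand of the gene. Capitals mark an SRE (TCACNCCAC), an E-box (CACGTG) or a CCAAT box (CCAAT, or ATTGG where it lies on the other strand).
Hmgcs1: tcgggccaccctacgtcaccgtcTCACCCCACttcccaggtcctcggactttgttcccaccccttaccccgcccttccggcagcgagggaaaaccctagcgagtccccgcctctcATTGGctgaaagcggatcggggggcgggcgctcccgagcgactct
Mvd: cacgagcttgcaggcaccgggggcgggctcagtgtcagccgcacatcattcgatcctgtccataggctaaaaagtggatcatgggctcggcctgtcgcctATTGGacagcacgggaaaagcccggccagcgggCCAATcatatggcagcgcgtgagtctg
Lss: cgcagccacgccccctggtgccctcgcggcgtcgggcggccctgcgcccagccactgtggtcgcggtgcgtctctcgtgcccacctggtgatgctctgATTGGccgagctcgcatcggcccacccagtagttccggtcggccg
Nsdhl: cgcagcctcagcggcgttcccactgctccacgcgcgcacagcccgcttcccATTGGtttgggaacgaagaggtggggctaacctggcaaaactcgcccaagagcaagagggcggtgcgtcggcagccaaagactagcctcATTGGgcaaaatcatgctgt
Hsd17b7: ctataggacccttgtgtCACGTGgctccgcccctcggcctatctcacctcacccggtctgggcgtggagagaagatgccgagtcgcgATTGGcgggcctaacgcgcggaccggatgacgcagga
Ebp: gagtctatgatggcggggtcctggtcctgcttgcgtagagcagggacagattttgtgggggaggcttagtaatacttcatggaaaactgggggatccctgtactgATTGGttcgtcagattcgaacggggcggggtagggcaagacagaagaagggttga
Sc5d: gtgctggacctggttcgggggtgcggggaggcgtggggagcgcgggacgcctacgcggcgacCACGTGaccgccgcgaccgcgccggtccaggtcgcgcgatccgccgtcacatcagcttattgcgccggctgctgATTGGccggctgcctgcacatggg
Insig1: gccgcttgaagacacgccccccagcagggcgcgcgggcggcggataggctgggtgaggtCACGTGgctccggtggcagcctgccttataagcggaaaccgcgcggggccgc

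The window of Hmgcs1 held the SRE letters, which 1.24% of all 32851 RefSeq promoter windows hold on either strand. It was the only match to these letters among the 24 genes, and other forms of the SRE were not searched for. The E-box letters were found for 6 of the 24 genes (Hsd17b7, Sc5d, Dhcr7, Insig1, Scap and Abca1) against 7.15% of all windows. A CCAAT box was found for 20 of the 24 genes, and for each of the 14 cholesterol enzymes with an entry, against 37.4% of all windows. A GC box (GGGCGG, which can share bases with a CCAAT box and is not in capitals) was found for 20 of the 24 genes and 13 of the 14 enzymes, against 35.7% of all windows. Genes with several start sites were counted when any of their windows held the letters. Over all genes, the share counted in that way was 1.44% for the SRE, 8.09% for the E-box, 41.1% for the CCAAT box and 38.2% for the GC box. All windows include those of genes that were not tested here, and no set of genes matched for level was compared. Such matches describe letters in a window and not sites that are bound.

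**Figure D1:**
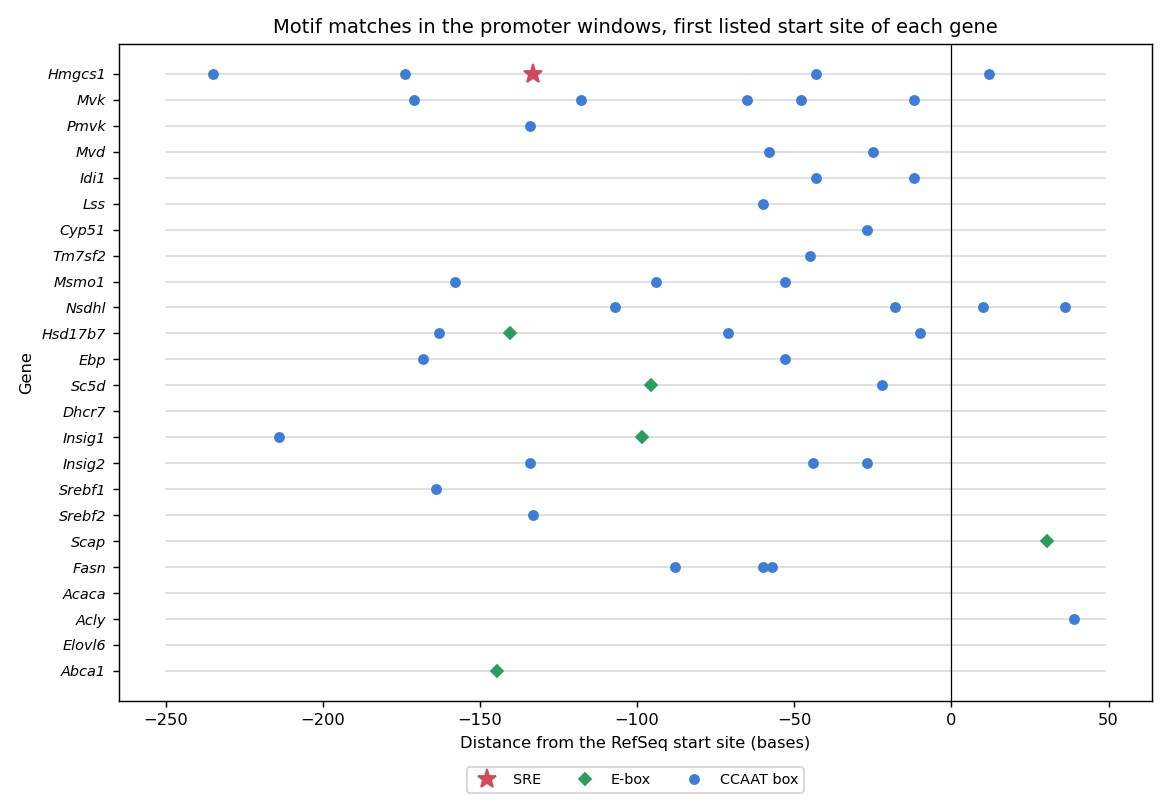
Positions of SRE, E-box and CCAAT box matches in the promoter window of each gene, with the distance from the first listed RefSeq start site in bases on the horizontal axis and 1 gene per line. The single SRE match is in Hmgcs1, and matches at other start sites (those of Dhcr7, and further ones of Scap and Srebf1) are not drawn.

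The Lyso cells, incubated with T-cell-derived granules, were compared with WT. The parts of the granules and of plating in the differences were not tested. Of the 30 genes tested, 12 rose in Lyso and 0 fell, with a median log2 fold change of 0.72. Over all genes tested, 3.5% rose, 1.21% fell and the median was -0.0048. The genes that rose were Mvk, Mvd, Fdps, Sqle, Lss, Cyp51, Tm7sf2, Nsdhl, Ebp and Sc5d of the cholesterol enzymes, Insig1 and Acly. For each of the 17 cholesterol enzymes, the lowest Lyso library was above the highest WT library. Over all genes tested, 15.8% lay above WT in that way. The summed level of the 17 enzymes was 841, 1399 and 1313 CPM in WT 1 to 3 and 2261, 2285 and 2380 CPM in Lyso 1 to 3.

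The largest differences with a call were in the mevalonate pathway and in the early and middle sterol steps. Mvd, which forms isopentenyl diphosphate, had 18.1, 25.3 and 25.9 CPM in WT and 63.2, 58.4 and 60.6 CPM in Lyso. Its lowest Lyso library thus lay far above its highest WT library, and its log2 fold change was 1.36 (standard error 0.15, edgeR adjusted p = 0.000345). Lss, which closes squalene epoxide to lanosterol, had 51.4, 81.8 and 54.1 CPM in WT and 145, 149 and 146 CPM in Lyso, a rise of 1.24 (standard error 0.16, edgeR adjusted p = 0.000812). Tm7sf2, a sterol reductase that follows the demethylation of lanosterol, was at 10.2 to 10.7 CPM in WT and 24.8 to 29.1 CPM in Lyso and rose by 1.35 (standard error 0.20, edgeR adjusted p = 0.00195). The groups did not overlap for these 3 enzymes, and the Lyso libraries lay close together. Part of the exonic bases of Tm7sf2 (12.08%) are shared with Vps51 on the same strand, and 26.71% of those of Fdps with another annotated gene, so the counts of both are less certain.

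Nsdhl, the dehydrogenase that takes part in removing the methyl groups of lanosterol, had 31.7, 60.3 and 50.6 CPM in WT and 129.8, 113 and 117 CPM in Lyso. It rose by 1.32 (standard error 0.22, edgeR adjusted p = 0.00491). Fdps, which makes farnesyl diphosphate, rose from 11.9, 12.7 and 13.8 CPM to 29.6, 24.9 and 25.1 CPM, a log2 fold change of 1.03 (standard error 0.18, edgeR adjusted p = 0.00644). For both enzymes every Lyso library was well above WT. Cyp51, the demethylase of lanosterol, rose by 0.97 (standard error 0.18, edgeR adjusted p = 0.0085), and Ebp, a sterol isomerase, by 0.76 (standard error 0.13, edgeR adjusted p = 0.00563). Sc5d, a sterol desaturase, had 58.2 to 64.1 CPM in WT and 91.2 to 97.6 CPM in Lyso and rose by 0.63 (standard error 0.13, edgeR adjusted p = 0.0156). The rises of Mvk, the mevalonate kinase, and Sqle, the squalene epoxidase, were 0.72 and 0.71, with edgeR adjusted p-values of 0.0424 and 0.0339, and these calls were lost in 14 and 9 of 21 alternatives. That of Sc5d was lost in 5.

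The remaining 7 cholesterol enzymes were not called in Lyso although their libraries did not overlap WT. The widest of these differences was that of Hsd17b7, the sterol reductase that acts with Nsdhl. It had 7.91, 46.0 and 65.4 CPM in WT and 134, 148 and 150.5 CPM in Lyso, a log2 fold change of 1.74 with a standard error of 0.47 (edgeR adjusted p = 0.0535). WT 1 stood far below the other WT libraries for this gene, with 14 counts. WT 1 was also the lowest WT library for Hmgcs1, the HMG-CoA synthase (51.4 CPM against 159.9 and 146 in WT 2 and WT 3), Idi1, the isopentenyl diphosphate isomerase (2.83 against 16.4 and 13.0), Fdft1, the squalene synthase (23.7 against 51.9 and 56.6), and Dhcr7, the last reductase of one branch (69.0 against 139 and 119). In Lyso these had 225 to 242, 20.1 to 20.8, 83.4 to 96.1 and 178 to 207 CPM, and their edgeR adjusted p-values ran from 0.0686 to 0.22. Msmo1, the sterol methyl oxidase, and Pmvk, the phosphomevalonate kinase, had log2 fold changes of 0.88 and 0.36 (edgeR adjusted p = 0.0577 and 0.234). WT 1 was the lowest WT library for Msmo1 too. Of the called enzymes, it was the lowest for Mvk, Mvd, Fdps, Sqle, Lss, Cyp51, Nsdhl and Ebp. It was not the lowest for Pmvk, Tm7sf2 and Sc5d.

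**Figure D2:**
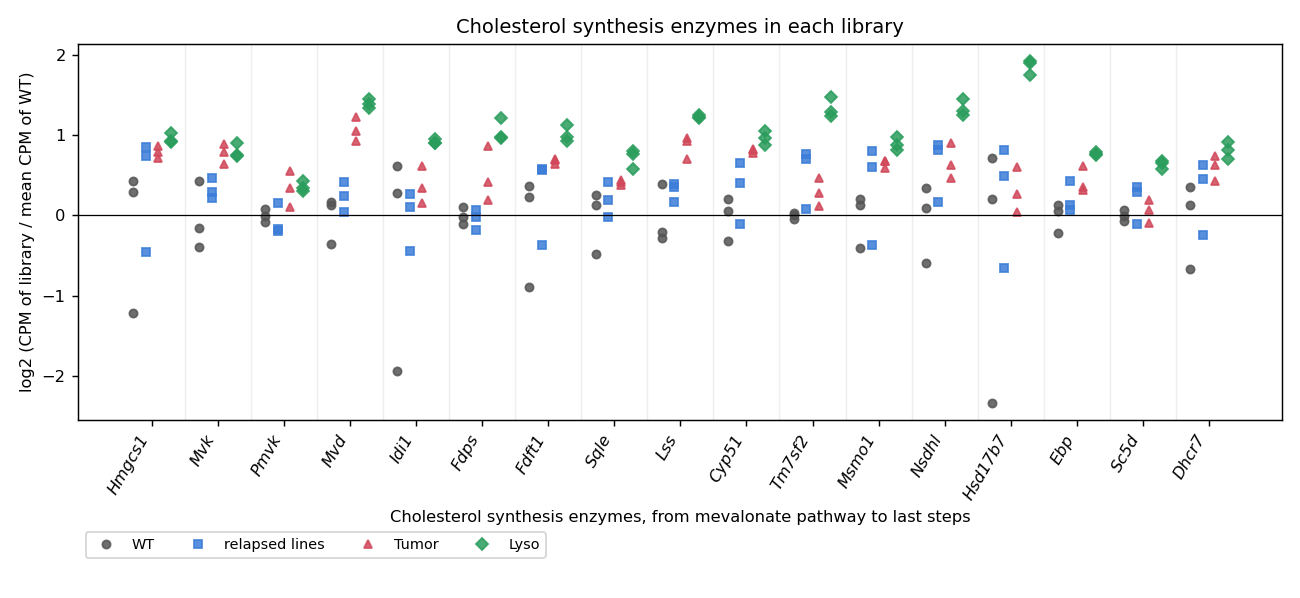
Level of each of the 17 cholesterol synthesis enzymes in every library, as the log2 ratio of its CPM to the mean CPM of the 3 WT libraries (vertical axis), in the order of the pathway along the horizontal axis, with 1 point per library. The Lyso points lie above all WT points for every enzyme. WT 1 is the lowest WT point of most enzymes, among them Idi1, Hmgcs1, Fdft1 and Hsd17b7.

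Since WT 1 and WT 2 were shallow, Lyso was also set against WT 3, the WT library of similar depth. With WT 3 as the only control, all 17 cholesterol enzymes kept a positive difference, from 0.35 for Pmvk to 1.43 for Lss, and 4 of the 30 genes were called higher where 12 were called with all WT libraries. Fewer of the genes were also called with 1 Lyso library left out (7 without Lyso 2 and 7 without Lyso 3). The share of all genes called in these runs is not given here. Lyso was further compared with the relapsed lines, which are deep and share no WT library. All 17 enzymes lay above the relapsed lines without overlap, against 15.3% of all genes tested. In this comparison 5 of the 30 genes rose in Lyso (Mvd, Fdps, Lss, Tm7sf2 and Ebp) and 1 fell (Srebf1), with a median of 0.47, while 4.87% of all genes rose, 2.81% fell and the median was -0.014. Mvd was higher by 1.16 (standard error 0.14, edgeR adjusted p = 0.000333) and Fdps by 1.09 (standard error 0.17, edgeR adjusted p = 0.00195). The adjusted p of Srebf1 was 0.0487 (edgeR), for a fall by 0.39, and its call was lost in 17 of 20 alternatives. The number of genes higher in Lyso than in the lines was 14 without WT 1, which enters through the shared spread, and 3 without Lyso 1 or Lyso 3. For these runs too, the share of all genes called is not given. The Lyso libraries also carried RNA of T-cell genes. The summed level of 11 T-cell markers was 15.5 to 17.3 CPM in Lyso against 1.27 to 6.78 CPM in WT, where 10 of them were at 0 in each library, and 3 of the 4 that could be tested rose. The part of T-cell RNA in the levels of the lipid genes was not tested.

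In cells sorted from relapsed tumors, 11 of the 30 genes rose against WT and 0 fell, with a median log2 fold change of 0.51. Over all genes tested, 12.1% rose, 6.94% fell and the median was 0.0014. Of the cholesterol enzymes, Mvk, Mvd, Lss, Cyp51 and Ebp rose, and 14 of the 17 lay above WT in all libraries, against 21.0% of all genes tested. The summed level of the 17 enzymes was 1762, 1846 and 1886 CPM in Tumor 1, 3 and 4, above every WT library and below every Lyso library. Mvd had 43.8, 47.6 and 54.0 CPM in Tumor, all above its highest WT value of 25.9 CPM, and rose by 1.04 (standard error 0.15, edgeR adjusted p = 0.000536). Lss rose by 0.88 to 102, 119 and 122 CPM (standard error 0.16, edgeR adjusted p = 0.0021). Cyp51 had 168, 241 and 218 CPM in WT and 370.2, 359 and 369 CPM in Tumor, and rose by 0.81 (standard error 0.18, edgeR adjusted p = 0.00745). The rises of Mvk and Ebp were 0.70 and 0.43 (edgeR adjusted p = 0.0199 and 0.0413), and their calls were lost in 6 and 15 of 21 alternatives. Against only WT 1 and WT 2, whose depth is closer to that of Tumor, the log2 fold changes were 1.15 for Mvd, 0.77 for Lss and 0.84 for Cyp51, and each was called. Without Tumor 3, and likewise without Tumor 4, 7 of the 30 genes were called higher in Tumor than in WT. The share of all genes called without these libraries is not given here, so the lower count may not be particular to these genes.

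Of the 6 genes of sterol sensing and transport, 5 rose in Tumor, against 12.1% of all genes tested. Their median log2 fold change was 0.74. Srebf2 had 226, 278 and 255 CPM in WT and 431, 444 and 429.5 CPM in Tumor. Its Tumor libraries lay close together and far from WT, and it rose by 0.78 (standard error 0.13, edgeR adjusted p = 0.00126). Srebf1 had 103, 110.1 and 88.8 CPM in WT and 149, 175 and 165 CPM in Tumor, a rise of 0.70 (standard error 0.11, edgeR adjusted p = 0.000882). Scap rose less, from 119, 117 and 124 CPM to 148, 162 and 169 CPM, by 0.41 (standard error 0.11, edgeR adjusted p = 0.019), and its call was lost in 8 of 21 alternatives. The largest rise of a sterol gene in Tumor was that of Insig1, itself a target of the SREBP factors. It had 71.2, 149 and 104 CPM in WT and 326, 294 and 287 CPM in Tumor, a difference of 1.48 (standard error 0.27, edgeR adjusted p = 0.00207). Stard4, a carrier of cholesterol between membranes, had 16.4, 30.4 and 33.8 CPM in WT and 52.2, 67.3 and 63.7 CPM in Tumor, and rose by 1.12 (standard error 0.25, edgeR adjusted p = 0.00668). Insig2, the INSIG gene that depends less on SREBP, had 67.4 to 98.4 CPM in WT and 71.4 to 77.3 CPM in Tumor (log2 fold change -0.14, edgeR adjusted p = 0.8). Mvd, Insig1 and Stard4 kept their calls in Tumor in all 21 alternatives.

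In Lyso, 1 of the same 6 genes rose, against 3.5% of all genes tested. Insig1 had 225, 250.2 and 245 CPM, which was 1.14 above WT (standard error 0.27, edgeR adjusted p = 0.0281), and lost its call without any 1 of the Lyso libraries and without WT 1 or WT 3 (largest adjusted p 0.0983). Srebf2 had 309 to 344 CPM in Lyso, above each WT library, with a log2 fold change of 0.36 and an edgeR adjusted p of 0.157. Srebf1, at 108 to 111 CPM, and Scap, at 109 to 132 CPM, overlapped WT, with log2 fold changes of 0.13 (standard error 0.11) and -0.04 (standard error 0.11).

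**Figure D3:**
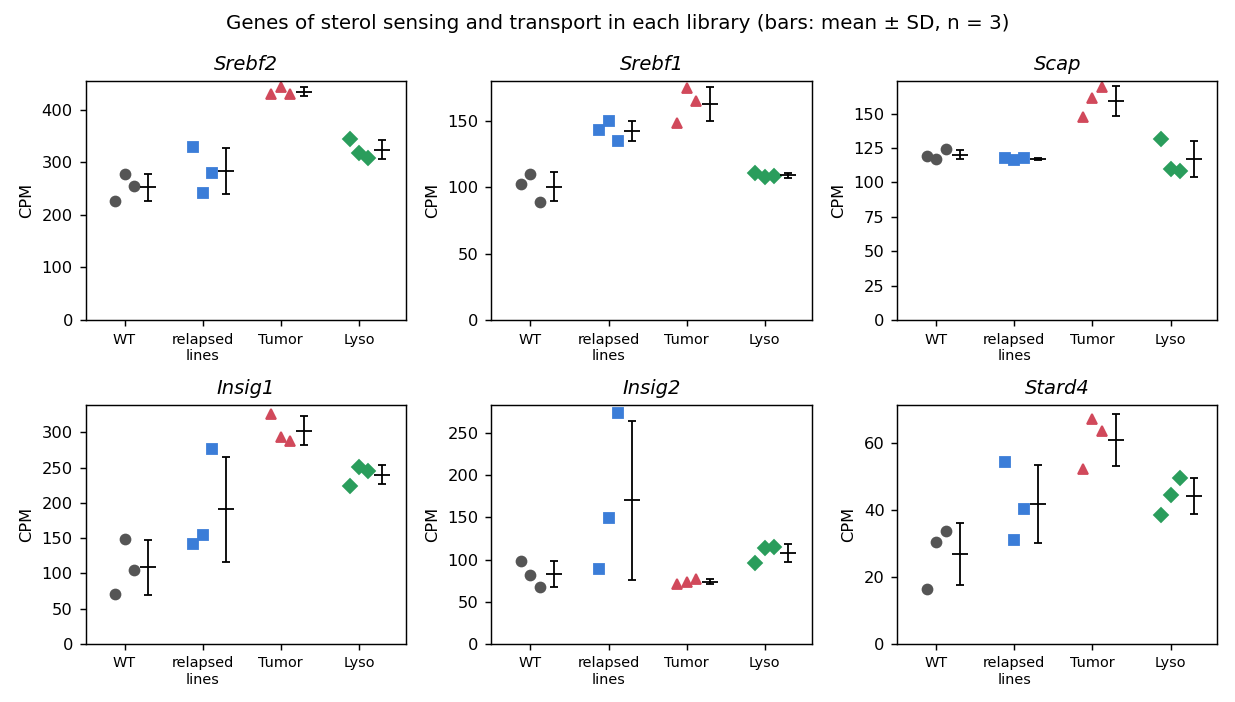
CPM of the 6 genes of sterol sensing and transport (vertical axis, from 0) in each library of the 4 groups, with bars for the mean ± SD (n = 3). Srebf2, Srebf1 and Scap have their highest means in Tumor, the Lyso points of Srebf1 and Scap overlap WT, and the line Rel has the highest Insig2 level at 274 CPM.

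Lyso and Tumor were compared directly to test whether their differences from WT were unequal. Srebf1, Srebf2 and Scap were higher in Tumor than in Lyso, by 0.58 (standard error 0.11, edgeR adjusted p = 0.00204), 0.43 (standard error 0.13, edgeR adjusted p = 0.0301) and 0.45 (standard error 0.11, edgeR adjusted p = 0.00802). The 5 cholesterol enzymes called went the other way. Tm7sf2 had 11.4, 14.5 and 12.7 CPM in Tumor, close to its WT level, and was 1.04 lower than in Lyso on the log2 scale. Hsd17b7 had 47.7, 60.3 and 41.1 CPM in Tumor, within the range of WT and less than every Lyso library. Sc5d had 57.3 to 69.8 CPM in Tumor, which overlapped WT. Fdps and Nsdhl were at 14.6 to 23.3 and 65.9 to 88.6 CPM in Tumor, between WT and Lyso. The edgeR adjusted p-values of this fall were 0.00177 for Tm7sf2, 0.0296 for Hsd17b7, 0.00625 for Sc5d, 0.0444 for Fdps and 0.0429 for Nsdhl. Of the 30 genes, 3 were thus above and 5 below their Lyso level in Tumor, with a median of -0.26, against 14.2% higher, 10.5% lower and a median of 0.0036 over all genes tested. The Tumor libraries lay below every Lyso library for 14 of the 17 cholesterol enzymes, against 26.8% of all genes tested. The median difference of these enzymes was -0.33. Melanocyte markers moved with them, with 3 of 9 lower in Tumor than in Lyso, 1 higher, 7 below every Lyso library and a median of -0.37, and summed to 20458 to 22570 CPM in Tumor and 29692 to 30468 CPM in Lyso. Their part in the difference was not tested. Without Lyso 1, Lyso 2, Lyso 3, Tumor 1 or Tumor 3, 2 of the 30 genes were called lower, and without Rel 8 were. Without Lyso 3, 1 gene was called higher in Tumor than in Lyso. How many of all genes were called with a library left out is not given here.

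RNA of stromal cells was present in the Tumor libraries. The summed level of 10 fibroblast markers was 7693 to 10690 CPM in Tumor, against 30.0 to 39.4 CPM in WT, 19.9 to 31.1 CPM in the relapsed lines and 15.1 to 18.0 CPM in Lyso, and 10 of the 10 rose in Tumor. Myeloid markers summed to 46.4 to 71.2 CPM in Tumor and 12.4 to 29.2 CPM in WT, and 6 of the 7 tested rose. Endothelial markers summed to 54.3 to 59.7 CPM in Tumor and 13.5 to 24.9 CPM in WT, with 5 of the 6 tested higher and 1 lower. Adipocyte markers summed to 6.23 to 7.79 CPM in Tumor and 2.11 to 2.83 CPM in WT, and both that could be tested rose, while Plin1, Cidec and Lep were at 0 in every Tumor library. Markers of keratinocytes and sebocytes stayed at or under 2.11 CPM in total in each library. The part of these cells in the levels of the lipid genes in Tumor was not tested.

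**Figure D4:**
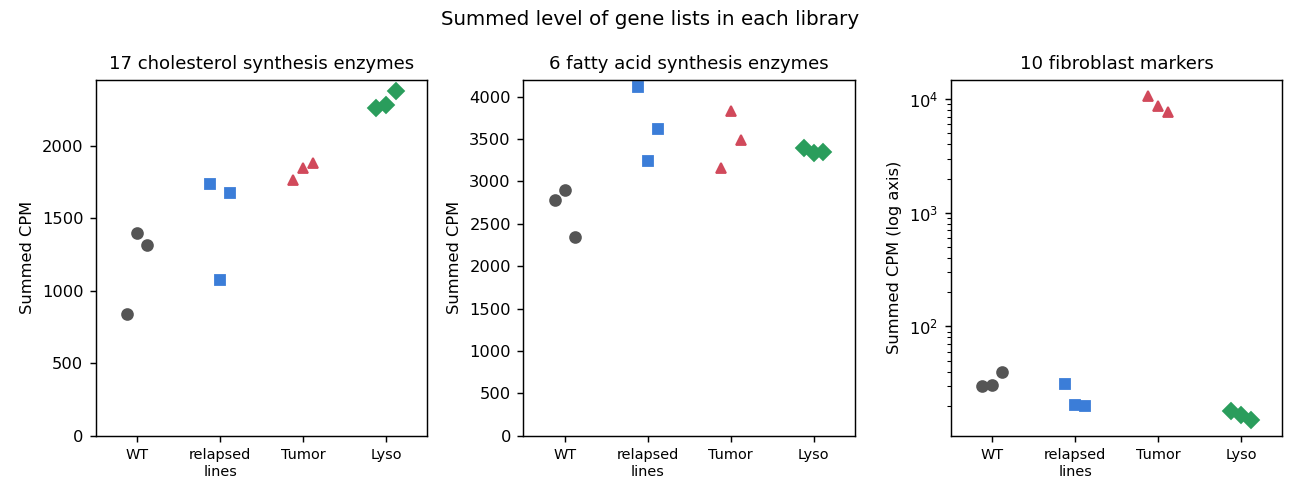
Summed CPM per library of the 17 cholesterol synthesis enzymes, the 6 fatty acid synthesis enzymes and 10 fibroblast markers (the last on a log axis), with 1 point per library in the 4 groups. The cholesterol enzymes sum to 2261 to 2380 CPM in Lyso and 1762 to 1886 CPM in Tumor against 841 to 1399 CPM in WT, and the fibroblast markers are at 7693 CPM or more in the Tumor libraries.

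The relapsed lines, grown in culture after they were sorted, were compared with WT in the same way. None of the 30 genes was called by edgeR in either direction, with a median log2 fold change of 0.29. Over all genes tested, 0.0134% rose, 0.0268% fell and the median was 0.0077, and 1636 genes had an unadjusted p under 0.05. DESeq2 called 1 of the 30 genes higher, and so did edgeR without ITF1 or without ITM, runs whose share over all genes is not given here. The 17 cholesterol enzymes summed to 1735 CPM in ITF1, 1678 CPM in Rel and 1072 CPM in ITM, so that ITM lay within the range of WT and the other lines above it. For Hmgcs1, ITM had 86.6 CPM where ITF1 and Rel had 199 and 215 CPM. It was likewise the lowest line for Msmo1 (127 CPM against 287 and 248) and Hsd17b7 (25.3 CPM against 55.8 and 70.1). Tm7sf2 (11.1 to 17.8 CPM) and Srebf1 (135 to 150.0 CPM) were the 2 genes whose lines all lay above WT, with log2 fold changes of 0.55 and 0.51 (edgeR adjusted p = 0.351 and 0.132). Over all genes tested, 6.43% lay above WT in that way. The line Rel stood apart with 274 CPM of Insig2 and 277 CPM of Insig1, against 88.3 and 141 CPM in ITF1 and 149 and 155 CPM in ITM.

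Tumor and the relapsed lines were both sorted from relapsed tumors, and the lines were then grown in culture. The groups also differed in cell markers, with 10 of 10 fibroblast, 6 of 7 myeloid and 4 of 6 endothelial markers tested higher in Tumor and 3 of 9 melanocyte markers lower and 1 higher. The part of this in the levels below was not tested. Mvd, Fdps, Lss, Srebf2 and Scap were higher in Tumor and Insig2 was lower, which makes 5 and 1 of the 30 genes, with a median of 0.29, against 11.8% and 7.74% of all genes tested and a median of -0.0075. Mvd had 23.8 to 30.7 CPM in the lines and was higher by 0.83 in Tumor (standard error 0.14, edgeR adjusted p = 0.00121). Srebf2 had 241 to 328 CPM in the lines and was higher by 0.62 in Tumor (standard error 0.13, edgeR adjusted p = 0.00457). Lss and Fdps were each higher by 0.57 (edgeR adjusted p = 0.0207 and 0.041), calls that were lost in 5 and 13 of 20 alternatives, and Scap was higher by 0.44 (edgeR adjusted p = 0.0105). Insig2 was lower by 1.20 on the log2 scale (standard error 0.30, edgeR adjusted p = 0.0142) and lost this call without Tumor 1 or Tumor 3. Without Rel, its difference was -0.69, and it was still called. The number of genes called higher in Tumor was 10 without WT 1, 3 without Tumor 3 and 2 without Tumor 4. All-gene shares for these runs are not given here.

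**Figure D5:**
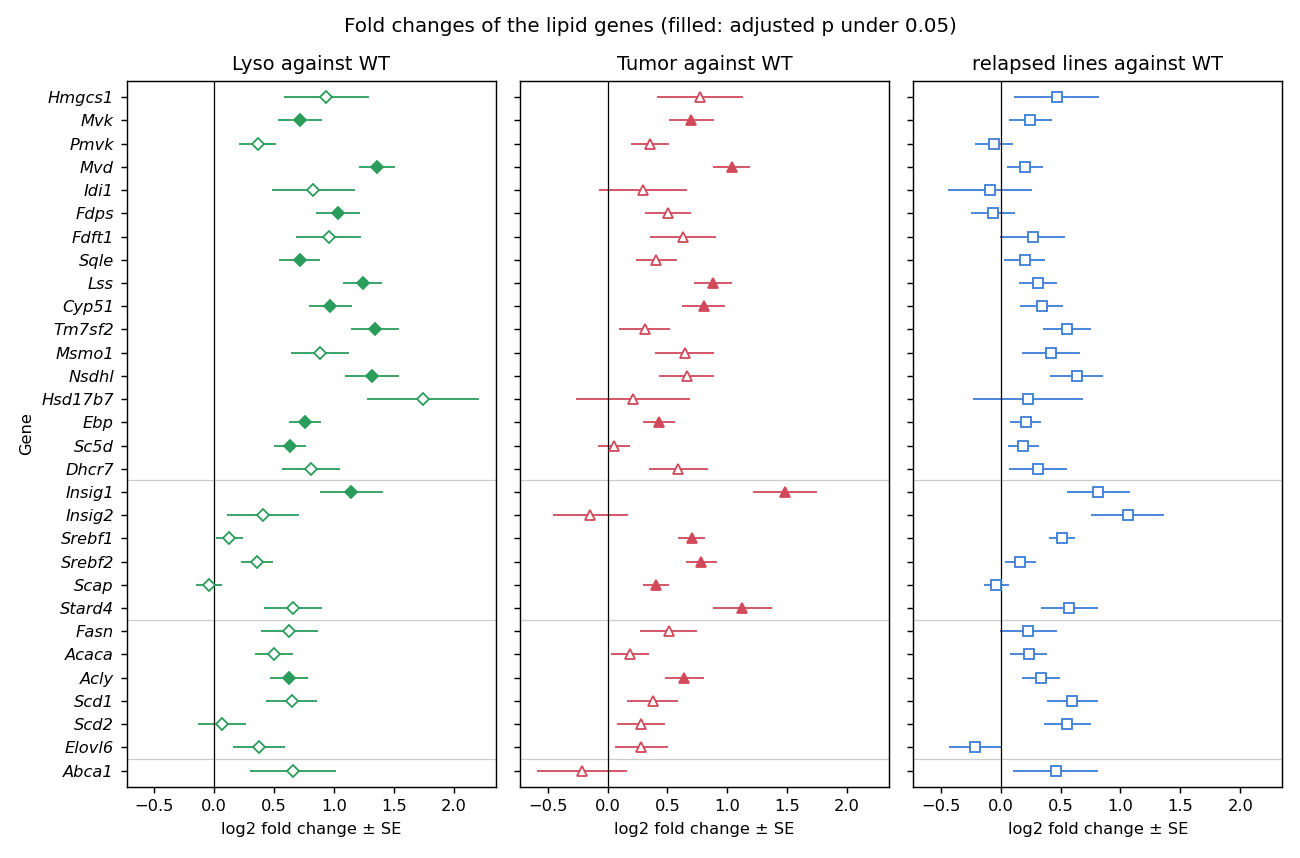
Log2 fold change ± SE against WT (horizontal axis) of the 30 genes tested in Lyso, Tumor and the relapsed lines, with filled symbols for an edgeR adjusted p under 0.05 and lines between the enzyme groups. There are 12 filled symbols in Lyso, 11 in Tumor and 0 in the relapsed lines.

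Among the 6 fatty acid enzymes, Acly alone rose in Lyso and in Tumor. This is 16.7% of the enzymes in each, against 3.5% and 12.1% of all genes tested. Acly makes cytosolic acetyl-CoA from citrate, the starting point of both pathways. Acly had 304, 419 and 454 CPM in WT, 598, 603 and 615 CPM in Lyso and 518, 652 and 668 CPM in Tumor. It rose by 0.62 in Lyso (standard error 0.16, edgeR adjusted p = 0.0465) and by 0.64 in Tumor (standard error 0.16, edgeR adjusted p = 0.0146), and the Lyso call was lost in 13 of 21 alternatives. Fasn, the fatty acid synthase, had 307, 651 and 535 CPM in WT, 740.4 to 829 CPM in Lyso and 616 to 782 CPM in Tumor, with log2 fold changes of 0.63 and 0.51 (edgeR adjusted p = 0.174 and 0.159). WT 1 again was its lowest library. Acaca, the acetyl-CoA carboxylase, had 41.8 to 49.8 CPM in WT and 63.6 to 66.5 CPM in Lyso, a log2 fold change of 0.50 (edgeR adjusted p = 0.0961). Scd1, a stearoyl-CoA desaturase, had 133 to 224 CPM in WT and 247 to 278 CPM in Lyso (edgeR adjusted p = 0.114), and Elovl6, an elongase, had log2 fold changes of 0.37 and 0.28 in Lyso and Tumor (edgeR adjusted p = 0.394 and 0.412). Scd2, the more abundant desaturase, overlapped WT in both, at 1109 to 1861 CPM in WT, 1544 to 1597 CPM in Lyso and 1690.2 to 2065 CPM in Tumor. The 6 enzymes summed to 2346 to 2899 CPM in WT, 3334 to 3396 CPM in Lyso, 3158 to 3833 CPM in Tumor and 3236 to 4112 CPM in the relapsed lines, and Scd2 held the largest part of that sum.

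The transporters of cholesterol efflux were not called. Abca1 had 39.6, 25.3 and 22.2 CPM in WT, 43.0, 41.6 and 47.6 CPM in Lyso and 21.1, 23.3 and 27.5 CPM in Tumor, with log2 fold changes of 0.66 (edgeR adjusted p = 0.359) and -0.21 (edgeR adjusted p = 0.747). Its highest library was Rel, at 66.6 CPM. Abcg1 had 2, 5 and 3 counts in Tumor 1, 3 and 4, 0 to 2 counts in each other library, and at most 1 count in WT and 0 in the relapsed lines. With a floor of 3 counts, its level was above the floor in Tumor 3 alone.

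Per kilobase of exon, the scale on which genes can be compared, levels in WT ran from 0.0027 CPM per kilobase for Abcg1 and 2.38 for Tm7sf2 to 276 for Scd2. Cyp51 was the highest cholesterol enzyme in WT (47.4 ± 8.38 CPM per kilobase, SD, n = 3), followed by Sqle (32.9 ± 8.28), Msmo1 (26.7 ± 5.63) and Hmgcs1 (25.9 ± 12.8), of which the last 3 lay within their spread of each other. In Lyso, Cyp51 was also the highest at 92.8 CPM per kilobase. Insig1 was at 35.0 ± 12.7 CPM per kilobase in WT and 97.8 in Tumor, and Srebf2 at 35.2 ± 3.63 in WT and 60.5 in Tumor. Lengths are those of all annotated exons of a gene, so a gene whose long isoforms are not used is given a lower level.

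The 58 other lipid genes cover fatty acid supply, elongation, desaturation and oxidation, sterol uptake and storage, SREBP processing, the isoprenoid branch and LXR response. Of these, 54 were tested. In Lyso 4 (7.41%) rose and 0 fell, with a median of 0.21, against 3.5% and 1.21% of all genes tested. Rnf139, an INSIG-binding ubiquitin ligase, rose by 0.68 (standard error 0.13, edgeR adjusted p = 0.00883). Aacs, which turns acetoacetate into acetoacetyl-CoA in the cytosol, rose by 0.88 (standard error 0.19, edgeR adjusted p = 0.0191), and Acat2, the cytosolic thiolase that forms acetoacetyl-CoA ahead of Hmgcs1, by 0.97 (standard error 0.23, edgeR adjusted p = 0.0289). In Tumor, 8 of the 54 rose and 4 fell (median 0.09), which is 14.8% and 7.41%, near the 12.1% and 6.94% of all genes tested. Acsl3, an acyl-CoA synthetase, rose by 1.09 (standard error 0.15, edgeR adjusted p = 0.000389). Cpt1a, which takes fatty acids into mitochondria, rose by 1.06 (standard error 0.26, edgeR adjusted p = 0.012). Acadm and Acadvl, of mitochondrial fatty acid oxidation, fell by 0.58 and 0.50 on the log2 scale (edgeR adjusted p = 0.0192 and 0.0195), and Me1, which supplies NADPH, fell by 0.57 (edgeR adjusted p = 0.034). In the relapsed lines none of the 54 was called by edgeR against WT.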

How the data were processed

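RNA of 12 libraries was sequenced by the authors after preparation by the INCPM mRNA protocol. Per the labels, adaptors were trimmed with fastp 0.19.6 and reads aligned to GRCm38 with STAR 2.7.1a, and the authors deposited raw counts per gene without normalization. The strand setting and annotation release are not given in the sources used here. The 4 rows of reads not on a gene were left out, and 36.2% to 39.4% of reads fell on genes. Reads matching several genes are not in the counts. Symbols came from GENCODE for GRCm38 and matched 54079 of the 54232 identifiers. Exons of 8 of the 31 genes overlap a gene on the other strand, by up to 18.31% of exonic bases (Fdft1 with Ctsb).

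The quasi-likelihood test of edgeR 4.0.16 (R 4.3.3) gave the differences, two-sided, after TMM scaling and filterByExpr by group, and positions and motifs with Python 3.11.15. Standard errors were derived from each log2 fold change and its F statistic (size of the change divided by the root of F). A level of 3 counts or fewer was taken as not detectable, which is 1.70 CPM in WT 1 and 0.177 CPM in WT 3. This floor covers counting error only. Replicates differed by more than sampling noise (chi-square per degree of freedom of 1.60 or more), and none was merged. In data simulated for 1 comparison over 14518 genes, edgeR recovered 54 of 100 genes changed by 1 on the log2 scale and 100 of 100 changed by 2. It called 7 other genes there, and 0 genes in a comparison without change. The simulation gave every gene and group the same dispersion and changed only genes above a minimum count. The real spread was unequal (chi-square per degree of freedom 1.60 for Lyso 2 and Lyso 3, 74.1 for ITF1 and ITM), so these rates need not hold for the data.

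The 31 genes, the other lipid genes and the marker lists were chosen with earlier results of these data known. All 31 were described. Of the other lipid genes, up to 3 risen and 3 fallen genes, those of lowest p, were named for Lyso and for Tumor against WT, apart from 1 that is not reported here. Alternatives were DESeq2 1.42.0, RLE or library-size scaling, no filter or a minimum of 10 counts, a fit of the compared groups only, a log2 fold change over 1, thinning to the smallest library, the replicate number as a block, WT 1 and WT 2 or WT 3 as the only controls, and each library left out. The test with WT 3 as the only control was added after seeing the data.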

Additional observations from a re-analysis of the deposited data

Results flagged for a closer look

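For 8 genes the difference from WT was unequal in Tumor and Lyso by a direct test of Tumor against Lyso (edgeR, adjusted p under 0.05). In the same test 24.7% of all genes tested were called (14.2% higher, 10.5% lower), so 8 of 30 is close to that share. Of the 30 genes 10% were higher and 16.7% lower. The values here are the log2 fold change in Tumor minus that in Lyso. They were lower in Tumor for Tm7sf2 (-1.04), Hsd17b7 (-1.53), Sc5d (-0.58), Fdps (-0.53) and Nsdhl (-0.66), all enzymes of cholesterol synthesis. They were higher in Tumor for Srebf1 (0.58), Srebf2 (0.43) and Scap (0.45), which encode the SREBP factors and their escort. Of these, Srebf1 and Tm7sf2 each lost the call in 1 of 21 alternatives, Sc5d in 2, Scap in 4, Hsd17b7 in 8, Nsdhl in 9, and Fdps and Srebf2 in 10.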

How the results depend on the processing

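No called difference changed sign in any alternative run. The number of genes higher in Lyso than in WT (12) was 21 without a filter on low counts, 6 with a log2 fold change over 1, 4 with WT 3 as the only control (tested after seeing the data, with the lone library assumed to vary like the other groups) and 7 to 16 with 1 library left out. The number higher in Tumor than in WT (11) was 3 with a fold change over 1 and 7 to 13 with 1 library left out. In the relapsed lines (0) it was 1 with DESeq2, 4 without a filter and 0 to 1 with 1 library left out. For Tumor against Lyso, the number higher (3) was 5 with only these groups fitted, 0 with a fold change over 1 and 1 to 3 with 1 library left out, and the number lower (5) was 16, 2 and 2 to 8 in these settings and 2 after thinning. For Tumor against the relapsed lines, the number higher (5) was 0 with a fold change over 1 and 2 to 10 with 1 library left out, and the number lower (1) was 2 without a filter, 0 with only these groups fitted and 0 to 1 with 1 library left out. For Lyso against the relapsed lines, the number higher (5) was 10 with DESeq2, 11 without a filter, 2 with a fold change over 1, 3 after thinning and 3 to 14 with 1 library left out. The number lower (1) was 0 with RLE factors, a minimum of 10 counts, only these groups fitted, a fold change over 1 or thinning, and 0 to 1 with 1 library left out. Fold-change limits and fewer samples leave fewer calls by construction, and otherwise the cause was not tested. The share of all genes called in each of these runs is not given here. A change in these counts therefore cannot be told apart from a change over all genes.

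Deviations of same-numbered libraries correlated by -0.0081 to 0.065, and those of differently numbered ones by -0.053 to 0.059, so the replicate numbers showed no clear pairing. The highest of the latter were WT 2 with Tumor 3 (0.0590) and WT 3 with Tumor 4 (0.0592). Whether WT and Tumor pair in another order was not tested. With the replicate number as a replicate block, 15 genes were higher in Lyso than in WT, 9 in Tumor than in WT, and 1 in Tumor than in Lyso. Shares over all genes with this block are not given here. Depth limits low genes such as Abcg1 and Idi1, which had 5 counts in WT 1.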
